A study of Mus musculus with 6 samples.

Results

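The insulin-like growth factor (IGF) receptors, the ligand Igf2 and the secreted IGF-binding proteins were described in tail keratinocytes of mice with an epidermal deletion of Gpr161 and of their controls. The 10 genes were taken by symbol from the gene table: Igf1r, Igf2r, Insr, Igf2, Igfbp2, Igfbp3, Igfbp4, Igfbp5, Igfbp6 and Igfbp7. All 10 were among the 19618 genes in the table, and all 10 were among the 15422 genes that passed the filter on low counts. Gpr161 is a G protein-coupled receptor in primary cilia that restrains Hedgehog signalling, and the study compared knockout with control to ask how its loss changes keratinocyte gene expression.

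Both groups were mice aged 4 months, with 3 libraries each. Knockout mice were K14cre+ and Gpr161Flox-Homozygous: Cre recombinase was driven by the keratin 14 promoter, which is active in basal cells of stratified epithelia, and both copies of Gpr161 were floxed. The labels list no Cre for the control libraries, of which 1 is labelled Gpr161Flox-Homozygous and 2 Gpr161Flox-Heterozygous. Presence of Cre and loss of Gpr161 therefore cannot be told apart. Strain and sex are not in the labels. Libraries are named by the tag in their column name: DE679, DE685 and DE688 are knockout, and DE680, DE684 and DE689 are control.

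Total estimated counts ranged from 17157864 to 25344399 per library. Gpr161 itself was 28.8 ± 4.23 CPM (counts scaled to a common library size, with trimmed mean of M values factors) in knockout libraries and 31.4 ± 1.10 CPM in control libraries (SD of 3 libraries each). Its change on the log2 scale was −0.13 (SE 0.11), short of the threshold in edgeR (adjusted p 0.553), so the whole-gene level did not check the labels. The Hedgehog target Gli1 was 69.4 ± 4.42 CPM in knockout libraries and 9.15 ± 0.857 CPM in control libraries. Basal keratinocyte markers summed to 27763 CPM or more in each library, and 1 library in each group, DE685 and DE684, carried Y-linked transcripts.

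The IGF system is a set of secreted ligands, cell-surface receptors and soluble binding proteins. IGF1 and IGF2 activate the receptor tyrosine kinase IGF1R, and IGF2 and insulin activate the insulin receptor, which signal through IRS adaptors, PI3-kinase and AKT. Binding proteins hold the ligands outside the cell and release them when proteases cut the binding protein, and IGF2R carries IGF2 to lysosomes. In skin, IGF1 comes mainly from dermal cells, while keratinocytes carry the receptors and need them for normal proliferation and hair follicle growth.

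A single member, Igfbp4, differed between the genotypes. The promoter-proximal sequences of Igfbp4 and of Igfbp3, the member with the highest level per length, are shown because one rose in every knockout library and the other did not separate the groups. They are the 250 bases before the RefSeq gene start (GRCm38.p6), 5′ to 3′ on the strand of the gene, with CpG dinucleotides in capitals. The Igfbp4 stretch is chr11:99040994-99041243 on the plus strand, and the Igfbp3 stretch is chr11:7213924-7214173 on the minus strand.
Igfbp4: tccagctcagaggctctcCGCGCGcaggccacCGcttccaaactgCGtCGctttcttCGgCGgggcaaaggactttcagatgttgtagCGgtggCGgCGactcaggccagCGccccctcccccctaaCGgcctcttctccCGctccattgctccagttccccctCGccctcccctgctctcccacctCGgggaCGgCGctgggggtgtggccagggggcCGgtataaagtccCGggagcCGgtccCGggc
Igfbp3: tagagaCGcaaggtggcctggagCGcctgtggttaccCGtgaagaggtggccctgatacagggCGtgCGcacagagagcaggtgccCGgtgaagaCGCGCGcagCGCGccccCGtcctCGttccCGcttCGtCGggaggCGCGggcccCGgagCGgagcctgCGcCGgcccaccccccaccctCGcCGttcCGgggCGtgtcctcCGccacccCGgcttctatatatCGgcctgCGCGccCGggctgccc
The Igfbp4 stretch held 22 CpG dinucleotides and the Igfbp3 stretch 32, against a median of 6 over the same stretch of all 32851 RefSeq promoter windows. At least as many as in Igfbp4 were found in 14.8% of windows, and at least as many as in Igfbp3 in 4.58%. The GLI motif GACCACCCA and the FOXO motif TGTTTAC were searched on both strands in the full windows of 300 bases (250 before the start and 50 after). Neither was found in any of the 13 windows of the 9 members that had one, where 0.253% and 3.65% of all windows held them. At shares this low, no match in so few windows was likely in advance, and control by GLI or FOXO factors was not tested.

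Igfbp4 (ENSMUSG00000017493.12, chromosome 11, 99041244 to 99054392, plus strand, GRCm38) encodes a binding protein that mostly restrains IGF action and is opened by the protease PAPP-A. Its level was 174 CPM in DE679, 190 CPM in DE685 and 184 CPM in DE688. In the control it was 104 CPM in DE680, 115 CPM in DE684 and 96.6 CPM in DE689. Every knockout library was above every control library, and the lowest knockout value exceeded the highest control value by far more than the spread within either group. The means were 183 ± 7.84 CPM and 105 ± 9.22 CPM (SD of 3 libraries each), from 2342 to 4724 counts per library. By the quasi-likelihood test of edgeR, with Benjamini-Hochberg adjustment over all genes tested, the log2 fold change was 0.80 (SE 0.07, adjusted p 0.00396), a 1.74-fold rise. Igfbp4 thus had the 26th smallest p of the 15422 genes. It passed the threshold in all 15 alternative fits, with changes from 0.74 to 0.86 and adjusted p from 8.18e-17 (DESeq2) to 0.0272 (without DE680).

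So 1 of the 10 members passed an adjusted p of 0.05, where 1.60% of all genes tested did, 1.24% upward and 0.357% downward. A second member, Igfbp7, passed only when a term for libraries with Y-linked transcripts was added, a fit in which 2.65% of all genes passed. DESeq2, in which 5.89% of genes with an adjusted p passed, also called 1 member, Igfbp4. By the unadjusted p, 2 members were under 0.05, as were 2931 of the 15422 genes tested. All 10 log2 fold changes were above 0, where 49.3% of all genes tested were. The median of the members was 0.27, against −0.0036 over all genes. Igfbp4 was the single member whose groups did not overlap with the knockout above, a pattern shown by 12.8% of all genes. The members were chosen with earlier results of these data known, so their shares beside those of all genes are a description.

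**Figure D1:**
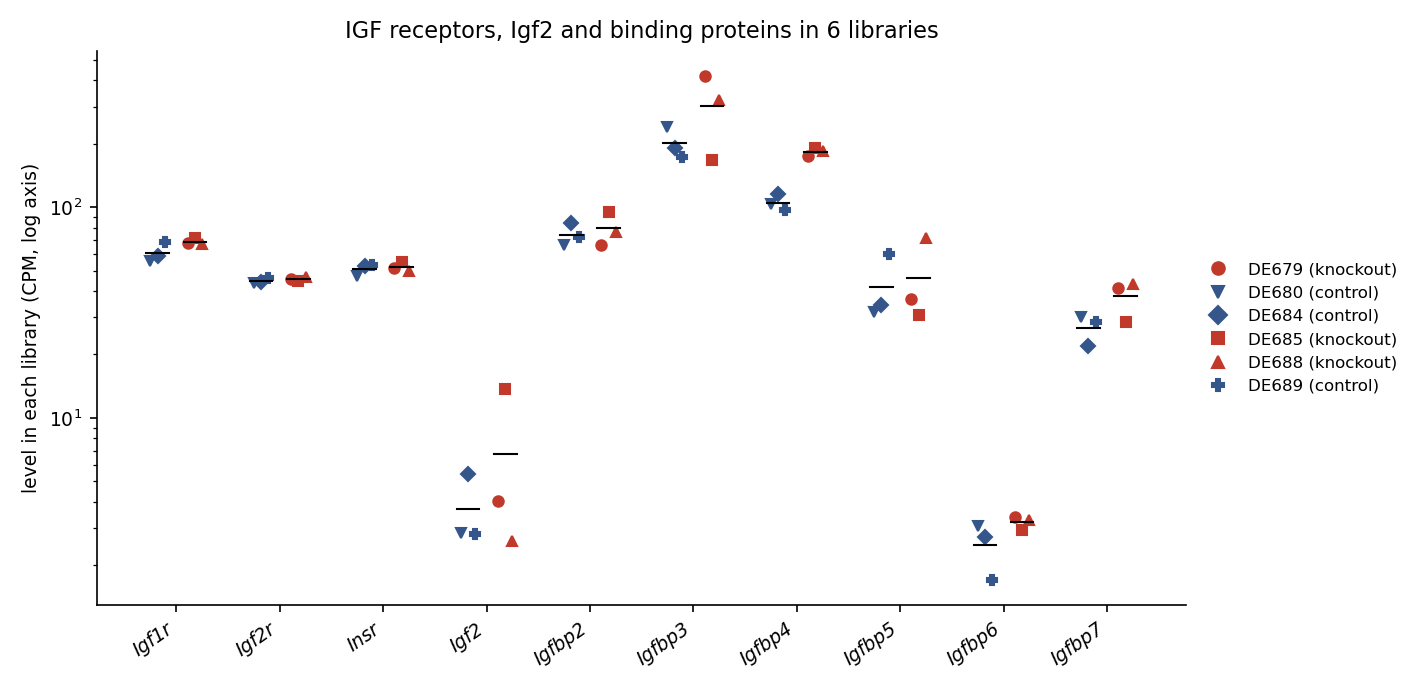
Level of the 10 members in each library, in CPM on a log axis; symbols mark libraries, blue is control, red is knockout, and horizontal lines are group means (n = 3 each). The groups of Igfbp4 are separate (96.6 to 115 against 174 to 190 CPM), while those of the other 9 members overlap.

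**Figure D2:**
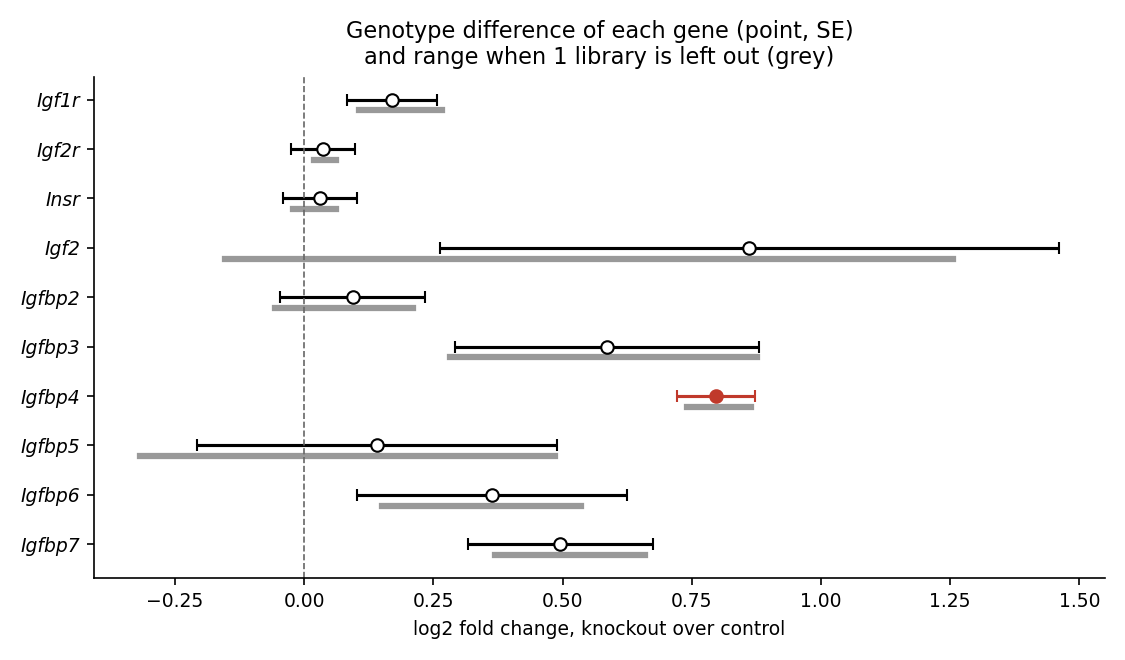
Log2 fold change of each member, knockout over control, with bars of 1 SE from the edgeR fit; grey bars span the values when each library was left out in turn, and the filled point passed an adjusted p of 0.05. Igfbp4 (0.80) keeps a narrow range, and the ranges of Insr, Igf2, Igfbp2 and Igfbp5 cross 0.

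Markers of other cells and of several kinds of keratinocyte moved with Igfbp4, and their part in its rise was not tested. Hair follicle bulge and outer root sheath markers, all 10 of them tested, summed to 6619 to 7715 CPM in the knockout and 4851 to 5788 CPM in the control. Of these, 3 rose by edgeR, DESeq2 called 8, 8 were at an unadjusted p under 0.05, and 7 had every knockout library above every control library. Over all genes, 1.60% passed in edgeR and 5.89% in DESeq2. An unadjusted p under 0.05 was reached by 2931 of 15422 genes, 12.8% had the knockout all above and 12.8% all below. Krt79, the most abundant marker, had overlapping groups (2174 and 1848 CPM on average in knockout and control). Cd34 went the other way, with a log2 fold change of −0.29 (edgeR adjusted p 0.504). The 8 basal keratinocyte markers summed to 31110 to 35500 CPM in the knockout and 27763 to 32668 CPM in the control. Of these, 6 had log2 fold changes above 0 and 2 below, and 3 had every knockout library above every control library. In edgeR 0 passed and 2 were at an unadjusted p under 0.05, and DESeq2 called 2. The 12 markers of differentiated keratinocytes summed to 30367 to 39999 CPM in the knockout and 35242 to 57367 CPM in the control. All 12 had log2 fold changes below 0 (median −0.29); 0 passed in edgeR, 7 were at an unadjusted p under 0.05, DESeq2 called 3, and 6 had every knockout library below every control library. The 12 fibroblast markers summed to 212 to 235 CPM in the knockout and 89.4 to 133 CPM in the control. Of the 8 fibroblast markers tested, Dcn and Fbln1 rose. Thy1 also had every knockout library above every control library, without passing (edgeR adjusted p 0.0560). Without Dcn, Fbln1 and Thy1, the other 9 fibroblast markers summed to 17.5 to 22.6 CPM in the knockout and 14.2 to 43.9 CPM in the control. The collagen gene Col1a1 was 5.40 CPM in knockout libraries and 7.06 CPM in control libraries on average, and Lum, Twist2 and Dpt stayed under 1 CPM in all 6 libraries. The 8 melanocyte markers summed to 87.8 to 128 CPM in the knockout and 61.0 to 88.3 CPM in the control, and 0 of the 8 passed in the edgeR test, with 3 at an unadjusted p under 0.05 and 1 called by DESeq2. Pericyte and smooth muscle markers (7 of 8 in the table) summed to 330 to 387 CPM in the knockout and 287 to 298 CPM in the control. Nearly all of that sum was Notch3 (200 and 179 CPM on average in knockout and control libraries) and Cspg4 (159 and 111 CPM). Acta2, Tagln and Rgs5 averaged 1.61, 2.50 and 0.822 CPM in the knockout and 1.25, 2.26 and 0.128 CPM in the control. Of 4 tested, Cspg4 rose (edgeR adjusted p 0.0427), and Myh11 and Cnn1 were under 1 CPM in all 6 libraries. The 10 immune cell markers summed to 45.3 to 110 CPM in the knockout and 23.2 to 89.6 CPM in the control. Of these, 9 were tested and all 9 had log2 fold changes above 0, with 0 at an unadjusted p under 0.05. For them, edgeR and DESeq2 called 0. The 10 endothelial markers summed to at most 12.9 CPM in each library. In bulk RNA, more cells of a type and more RNA per cell cannot be told apart.

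Genes whose levels followed Igfbp4 most closely over the 6 libraries were Gli2, Bmp3 and Ncmap, with Pearson r of 0.998, 0.998 and 0.997. They are the 3 highest of 13664 genes with a mean of at least 1 CPM, on log2(CPM + 1). Gli2, a transcription factor of the Hedgehog pathway, was 48.7 CPM in knockout libraries and 14.1 CPM in control libraries on average. Bmp3, a secreted ligand of the BMP family, was 1.95 and 0.373 CPM, and Ncmap, a membrane protein of myelin, 2.11 and 0.714 CPM. Because the groups of Igfbp4 are separate, genes chosen for likeness to it differ between the groups by that choice, so these levels are a description.

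The receptors showed the least spread between libraries. Igf1r (chromosome 7, 67952827 to 68233668, plus strand), the main signalling receptor for both IGFs, was 67.4, 71.0 and 66.7 CPM in the knockout libraries DE679, DE685 and DE688. It was 55.3, 58.5 and 68.4 CPM in the control libraries DE680, DE684 and DE689. The groups overlapped through DE689, and the means were 68.4 ± 2.34 and 60.7 ± 6.83 CPM (SD of 3 libraries each). The log2 fold change of 0.17 (SE 0.09) did not pass the edgeR test (adjusted p 0.327), and leaving out DE689 gave 0.27 (adjusted p 0.155).

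Insr (chromosome 8, 3122061 to 3279617, minus strand), the insulin receptor, was 51.6, 54.7 and 50.0 CPM in the knockout libraries and 47.3, 52.6 and 53.0 CPM in the control libraries, in the same order of tags. Its values lay within 1.16-fold of each other in all 6 libraries. The log2 fold change was 0.03 (SE 0.07, edgeR adjusted p 0.858), and it took the other sign without DE680 (−0.02) or without DE685 (−0.0062).

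Igf2r (chromosome 17, 12682406 to 12769664, minus strand), which removes IGF2 from the cell surface and also sorts lysosomal enzymes, was the steadiest member. It was 45.5, 44.6 and 46.7 CPM in the knockout libraries and 43.5, 44.0 and 45.9 CPM in the control libraries. The highest library was 1.07-fold the lowest, and the log2 fold change was 0.04 (SE 0.06, edgeR adjusted p 0.793).

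The ligand Igf2 (chromosome 7, 142650766 to 142666816, minus strand), a growth factor imprinted in most tissues, was low and varied most. It was 4.03 CPM in DE679, 13.7 CPM in DE685 and 2.61 CPM in DE688. In the control it was 2.84 CPM in DE680, 5.40 CPM in DE684 and 2.82 CPM in DE689. The highest value in each group came from the library with Y-linked transcripts. On the log2 scale the difference was 0.86 (SE 0.60), which did not pass in edgeR (adjusted p 0.471). It rested on DE685: without that library the value was −0.15 (adjusted p 0.861). With a term for Y-linked transcripts it was 0.63 with a smaller SE of 0.29, and it did not pass in that edgeR fit either (adjusted p 0.262). Igf2 had 64 to 237 counts per library, and 64.5% of its exon bases overlap exons of Gm49394 on the same strand or Igf2os on the opposite strand. Whether counting used strand is not given in the sources used here, so its counts are uncertain to that extent; Igf2os had 3 to 14 counts per library.

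Among the other binding proteins, Igfbp3 and Igfbp7 were higher on average in the knockout without passing the test. Igfbp3 (chromosome 11, 7206086 to 7213923, minus strand), the main carrier of IGFs in blood, was 419 CPM in DE679, 167 CPM in DE685 and 321 CPM in DE688. It was 240 CPM in DE680, 192 CPM in DE684 and 173 CPM in DE689. The knockout held both the 2 highest libraries and the lowest, DE685, so the groups overlapped. The means were 303 ± 127 and 202 ± 34.7 CPM (SD of 3 libraries each), and the log2 fold change was 0.59 (SE 0.29, edgeR adjusted p 0.321). It moved to 0.88 without DE685 (adjusted p 0.0774) and to 0.28 without DE679 (adjusted p 0.714).

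Igfbp7 (chromosome 5, 77349240 to 77408041, minus strand), a family member with low affinity for IGFs that is also deposited around vessels, was 41.5 CPM in DE679, 28.4 CPM in DE685 and 43.3 CPM in DE688. In the control it was 30.0 CPM in DE680, 21.9 CPM in DE684 and 28.4 CPM in DE689. The groups overlapped only through DE685, which was below DE680 and DE689. In each group the library with Y-linked transcripts was the lowest. The log2 fold change was 0.50 (SE 0.18, edgeR adjusted p 0.200). With a term for Y-linked transcripts it was 0.48 (SE 0.08, edgeR adjusted p 0.0228), and this was the single alternative of 15 in which Igfbp7 passed. Exons of Polr2b on the opposite strand overlap 7.03% of its exon bases. Endothelial cells are a known source of Igfbp7, and their part in its level was not tested. Their 10 markers summed to 6.12 to 9.37 CPM in the knockout and 8.13 to 12.9 CPM in the control, and 7 of the 8 tested had log2 fold changes below 0. These markers were low, with Cdh5, Tek, Emcn and Esam under 1 CPM in all 6 libraries.

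Igfbp2 (chromosome 1, 72824503 to 72852474, plus strand), which can also bind integrins, was 66.4, 95.0 and 76.2 CPM in DE679, DE685 and DE688, and 65.9, 84.1 and 72.3 CPM in DE680, DE684 and DE689. The libraries with Y-linked transcripts, DE685 and DE684, were the highest in their groups, as for Igf2. The log2 fold change was 0.09 (SE 0.14, edgeR adjusted p 0.759) and became −0.06 without DE685.

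Igfbp5 lies next to Igfbp2 on the opposite strand (chromosome 1, 72857932 to 72874884) and encodes a binding protein that also attaches to matrix. It was 36.8, 30.6 and 71.1 CPM in DE679, DE685 and DE688, and 31.9, 34.4 and 59.7 CPM in DE680, DE684 and DE689. The high libraries were 1 knockout and 1 control, DE688 and DE689, and the other 4 lay between 30.6 and 36.8 CPM. The log2 fold change was 0.14 (SE 0.35, edgeR adjusted p 0.864), −0.32 without DE688 and 0.49 without DE689.

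Igfbp6 (chromosome 15, 102144362 to 102149511, plus strand), which prefers IGF2 to IGF1, was 3.39, 2.95 and 3.27 CPM in DE679, DE685 and DE688, and 3.06, 2.72 and 1.71 CPM in DE680, DE684 and DE689. It rested on 43 to 84 counts per library. The groups overlapped, and the log2 fold change was 0.36 (SE 0.26, edgeR adjusted p 0.486).

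For the members with the smallest p after Igfbp4, the nearest patterns were taken by the same rule. Adamtsl4, Zfp414 and Pbxip1 followed Igfbp7 (r from 0.987 to 0.997), and C230062I16Rik, Arhgef40 and Ino80dos followed Igfbp3 (r from 0.978 to 0.995). None of these genes passed in edgeR (adjusted p 0.199 to 0.655). They are the highest of 13664 genes searched over 6 libraries, so these r values are a description.

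Levels were compared between members only per length, as CPM per kilobase of merged exons. The mean of the 6 libraries was 80.6 ± 31.9 for Igfbp3, 41.5 ± 6.09 for Igfbp2, 32.6 ± 9.77 for Igfbp4 and 26.7 ± 6.90 for Igfbp7 (CPM per kilobase, SD, n = 6). It was 7.34 ± 2.84 for Igfbp5, 4.84 ± 0.130 for Igf2r, 3.84 ± 0.369 for Igf1r, 3.75 ± 0.188 for Insr, 2.56 ± 0.547 for Igfbp6 and 0.914 ± 0.747 for Igf2. Ranges over the 6 libraries overlapped between Igfbp2 and Igfbp4, Igfbp4 and Igfbp7, Igf1r and Insr, and Igfbp6 and Igf2, so these neighbours were not ordered beyond their spread. The binding proteins Igfbp2, Igfbp3, Igfbp4 and Igfbp7 were above all 3 receptors in each library, and the receptors were above Igf2. With the longest transcript in place of merged exons, Igf1r (5.66) and Insr (5.51) came before Igf2r (5.07).

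The 6 binding proteins together came to 253, 179 and 236 CPM per kilobase in DE679, DE685 and DE688, and to 169, 159 and 151 in DE680, DE684 and DE689. Each knockout library was above each control library, an order that 12.8% of all single genes tested had, and DE685 was close to DE680. Igfbp4, whose groups are separate, is part of this sum, so the order is not a result apart from it. In DE685, Igfbp4 was 43.0 and Igfbp3 53.5 CPM per kilobase, against 23.5 and 76.8 in DE680. Igfbp4 made up 15.6%, 24.0% and 17.6% of that sum in the knockout libraries and 13.9%, 16.4% and 14.5% in the control libraries, and these shares overlapped between the groups. Igfbp3 made up from 29.8% (DE685) to 53.0% (DE679) of it.

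**Figure D3:**
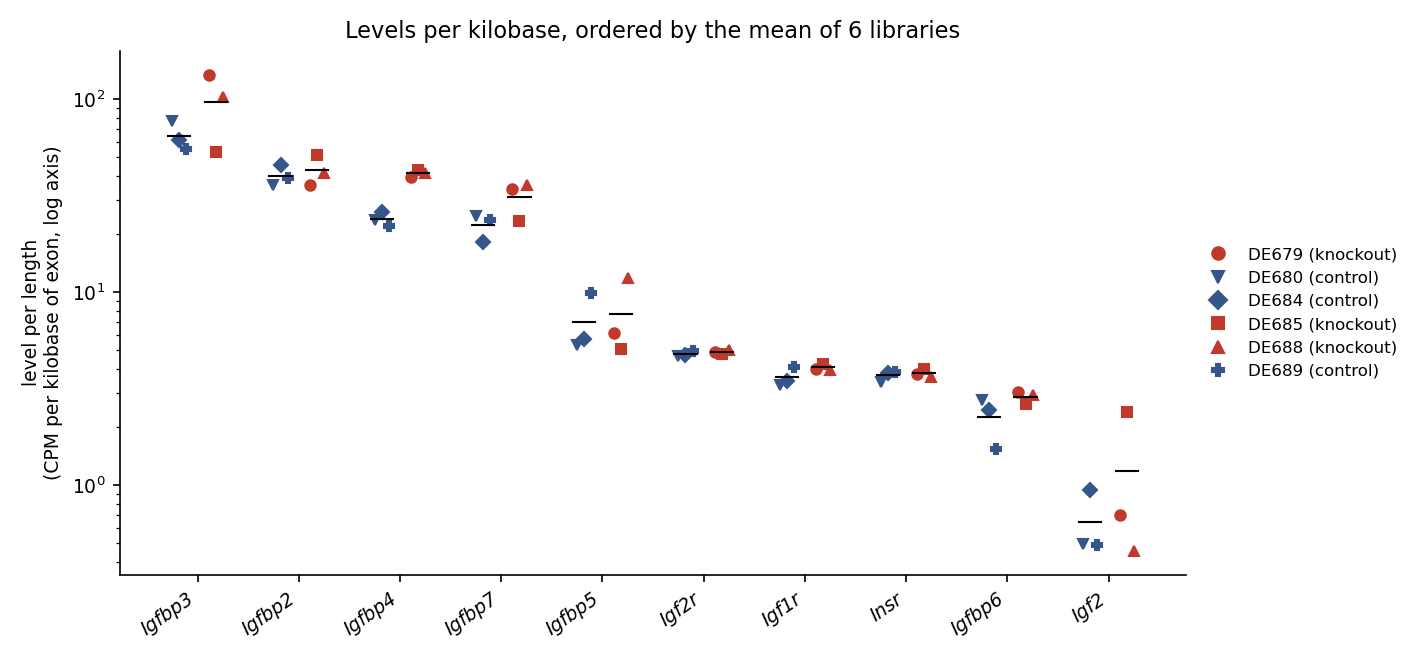
Level of each member per length, in CPM per kilobase of merged exons on a log axis, ordered by the mean of the 6 libraries; symbols mark libraries, blue is control, red is knockout, and lines are group means. Igfbp3, Igfbp2, Igfbp4 and Igfbp7 lie between 18.1 and 134, and Igf2 lies between 0.455 and 2.39.

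Other genes of insulin and IGF signalling were taken from 8 gene lists that hold 103 genes outside the members. Of these, 91 were in the table and 83 were tested. The edgeR test called 4 higher and 1 lower, against 1.60% of all genes tested. The lists were chosen with earlier results of these data known, so this comparison is a description. Their median log2 fold change was 0.06, and 47 of the 83 were above 0. Groups did not overlap for 26 of them, with the knockout above for 17 and below for 9, where 25.6% of all genes did not overlap. For the counts by list that follow, 5.89% of all genes with an adjusted p passed in DESeq2. An unadjusted p under 0.05 was reached by 2931 of the 15422 genes tested.

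Among proteases that cut the binding proteins and their inhibitors, 1 of 8 tested genes changed. Pappa (chromosome 4, 65124174 to 65357509, plus strand) encodes the metalloprotease PAPP-A, whose best known substrate is IGFBP4. It was 13.9, 17.3 and 12.1 CPM in DE679, DE685 and DE688, and 24.9, 24.8 and 22.5 CPM in DE680, DE684 and DE689. All 3 knockout libraries were below all 3 control libraries. Pappa fell by 0.74 on the log2 scale (SE 0.13, edgeR adjusted p 0.0423), and it passed in 1 of the 6 fits that left out a library, without DE685. Its relative Pappa2 changed by −0.76 (SE 0.44, edgeR adjusted p 0.387), with overlapping groups.

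The list of 20 genes set as inhibitors of insulin and IGF signalling also held Foxo1, Foxo3, Foxo4, Ptpn11 and Sh2b2, which are not inhibitors in a strict sense. Of the 20 genes, all tested, 2 rose, 0 fell and 15 had log2 fold changes above 0, with a median of 0.14. DESeq2 called 4, Socs3 and Foxo3 besides the 2 that edgeR called, and 6 were at an unadjusted p under 0.05. Every knockout library was above every control library for 7 of the 20, Foxo3 and Foxo4 among them, against 12.8% of all genes tested. Grb14 (chromosome 2, 64912476 to 65024987, minus strand), an adaptor that blocks the insulin receptor kinase, was 4.37, 3.81 and 3.46 CPM in DE679, DE685 and DE688. It was 0.754, 0.790 and 0.317 CPM in DE680, DE684 and DE689, higher by 2.64 on the log2 scale (SE 0.35, edgeR adjusted p 0.0157). Inppl1 (chromosome 7, 101822632 to 101838229, minus strand), a lipid phosphatase that removes the product of PI3-kinase, was 33.9, 33.6 and 35.5 CPM in the knockout libraries and 22.0, 22.4 and 24.2 CPM in the control libraries. Its log2 fold change was 0.59 (SE 0.07, edgeR adjusted p 0.0134), and exons of Gm10602 and Phox2a on the opposite strand overlap 20.3% of its exon bases. Both lost the threshold without DE679, without DE680 and without DE688, and Grb14 also without DE685.

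**Figure D4:**
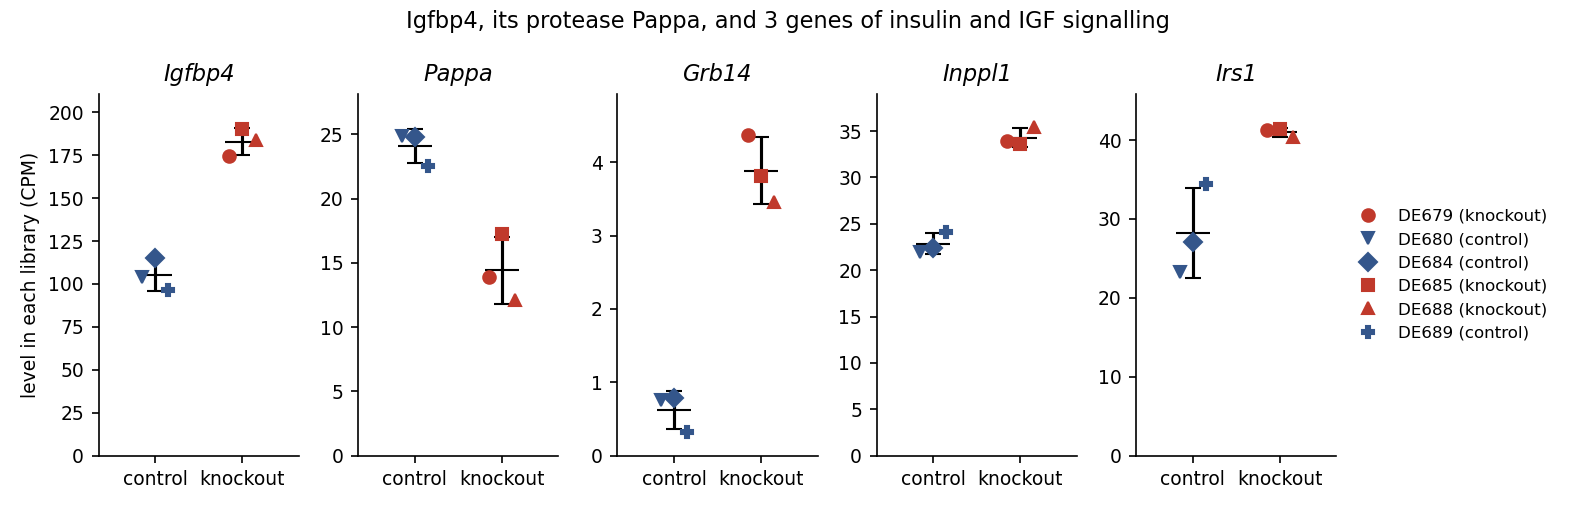
Level of Igfbp4, Pappa, Grb14, Inppl1 and Irs1 in each library, in CPM on axes that start at 0; points are libraries, with the group mean and SD in black (n = 3 each). The groups are separate in all 5 panels, with Pappa lower in the knockout and the other 4 higher; Irs1 did not pass the edgeR test.

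The adaptors and kinases gave 0 calls among 23 tested genes by edgeR, with 7 at an unadjusted p under 0.05 and 1, Irs1, called by DESeq2. Of those 7, Irs1, Irs2 and Pik3r1 were higher in the knockout, and Pdpk1, Rheb, Rps6kb1 and Eif4ebp1 were lower. Irs1, the adaptor that couples both receptors to PI3-kinase, was 41.3, 41.4 and 40.3 CPM in the knockout libraries and 23.2, 27.0 and 34.4 CPM in the control libraries. Its log2 fold change was 0.54 (SE 0.13, edgeR adjusted p 0.103). It passed without DE689, the control library nearest to the knockout. Exons of Gm9747 on the opposite strand overlap 30.9% of its exon bases. The regulatory subunit gene Pik3r1, the most abundant of the list, changed by 0.25 (SE 0.09, edgeR adjusted p 0.190).

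Transcripts that FOXO factors are known to drive when insulin and IGF signalling is low gave 0 calls among 12 tested genes by edgeR, with 3 at an unadjusted p under 0.05 and 1 called by DESeq2. That 1 was Txnip, which was 393 ± 40.1 CPM in knockout libraries and 294 ± 41.3 CPM in control libraries (SD of 3 libraries each). Its log2 fold change was 0.42 (SE 0.11, edgeR adjusted p 0.120), and 8 of the 12 values were above 0.

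Among ligands, 2 of 7 genes were tested, Igf2 and Insl6, and edgeR and DESeq2 called 0, with 0 at an unadjusted p under 0.05. Igf1 did not pass the filter and was 0.0848 to 0.462 CPM over the 6 libraries. Among other binding proteins and partners, 9 of 14 genes were tested, with 0 calls by edgeR, 1 at an unadjusted p under 0.05 and 1 by DESeq2, the IGFBP-related gene Kazald1. Kazald1 was 32.3 ± 4.23 CPM in knockout libraries and 22.0 ± 2.82 CPM in control libraries (log2 fold change 0.55, SE 0.13, edgeR adjusted p 0.0858). Lrp1, a large endocytic receptor that binds IGFBP3, was 242 ± 8.78 and 246 ± 14.6 CPM (edgeR adjusted p 0.871).

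In the list of proteins that bind IGF mRNA, 2 of 6 genes were tested, Igf2bp2 and Hmga2. Hmga2, which was listed with them but is not itself a protein that binds IGF mRNA, rose. Hmga2 (chromosome 10, 120361275 to 120476469, minus strand), a chromatin protein known to drive Igf2bp2, had 35, 24 and 64 counts in DE679, DE685 and DE688 and 2, 0 and 0 counts in DE680, DE684 and DE689. Against a floor of 3 counts in the control library with the highest floor, its mean was at least 13.4-fold higher in the knockout (edgeR adjusted p 0.0153). It lost the threshold without DE688 and without DE689. Igf2bp2 was 0.865 CPM in knockout libraries and 0.693 CPM in control libraries on average, a log2 difference of 0.29 (SE 0.45, edgeR adjusted p 0.769).

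The imprinted gene list, in which Igf2 and Igf2r also stand, gave 1 call by edgeR among 13 tested genes, with 4 at an unadjusted p under 0.05 and 2 called by DESeq2, Dcn and Peg3. The edgeR call was Dcn, a proteoglycan of the dermal matrix, at 119 ± 6.19 CPM in knockout libraries and 31.9 ± 10.1 CPM in control libraries (log2 fold change 1.90, SE 0.21, edgeR adjusted p 0.00782). The RNAs that neighbour the 2 imprinted members are named after their values were seen. H19, which shares its enhancers with Igf2, was 0.868 ± 0.0987 CPM in knockout libraries and 2.00 ± 0.726 CPM in control libraries (edgeR adjusted p 0.128). Airn, the antisense RNA at Igf2r, was 0.953 ± 0.124 and 1.52 ± 0.533 CPM (edgeR adjusted p 0.317). For both, all 3 knockout libraries were below all 3 control libraries, as for 12.8% of all genes tested.

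**Figure D5:**
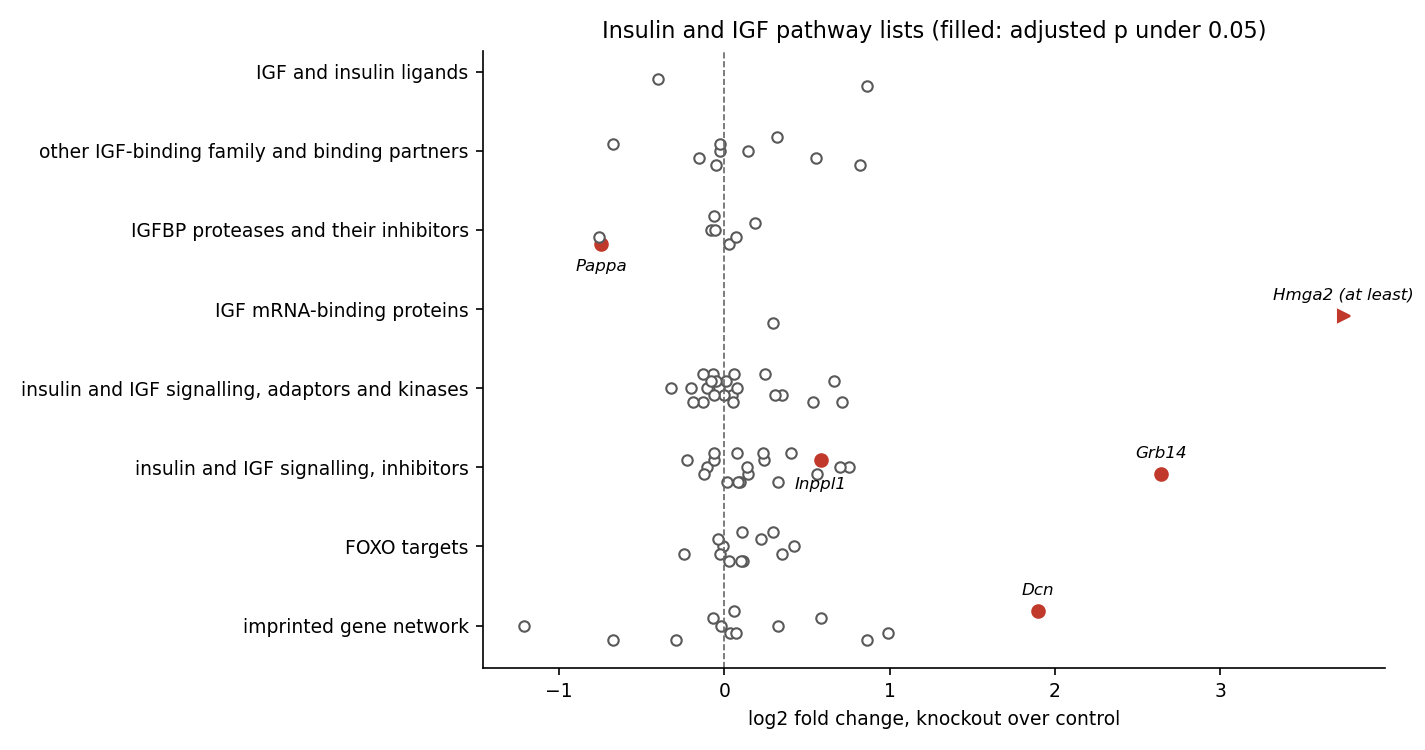
Log2 fold change, knockout over control, of every tested gene in the 8 gene lists, with list members Igf2, Igf2r and Insr included; filled red symbols passed an adjusted p of 0.05. Hmga2 is drawn as a triangle at its lower bound (log2 of 13.4-fold), and Pappa (−0.74) is the single filled point below 0.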

How the data were processed

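Polyadenylated RNA from tail keratinocytes was sequenced from stranded libraries, per the labels' protocols. bcl2fastq 2.20, cutadapt 1.18, STAR 2.7.0f, Partek and the build mm10 are named in the submitters' processing notes, without roles. The authors deposited estimated counts per gene, and a normalized signal that equals the estimated count times a constant per library plus 0.001; how the constants were set is not given in the sources used here. Per the file headers, columns come from sorted alignments with duplicates marked. The columns name a group but no sample, so each was assigned to its group only.

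Estimated counts were rounded to whole numbers, filtered with filterByExpr, scaled by TMM (factors 0.975 to 1.03) and fitted with edgeR 4.0.16 (glmQLFit and glmQLFTest, with no term but genotype). Benjamini-Hochberg adjustment ran over all 15422 genes, with a threshold of 0.05; the design had been written for this test. Standard errors are the absolute log2 fold change over the square root of F. The smallest exact two-sided permutation p for 3 against 3 libraries is 0.1. The labels do not say that libraries came from separate animals, so p-values measure the spread between these libraries. A depth of 3 counts is 0.117 to 0.173 CPM, which covers counting error only.

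Coordinates, exon lengths and overlaps are from GENCODE M21 (GRCm38): 19017 of 19142 genes matched by symbol had the same chromosome and start as the table. Promoters are from RefSeq (GRCm38.p6) for 9 of the 10 members; Insr had no entry. Protein sequences were not used here. Members and lists were chosen with earlier results of these data known. The 10 members, all genes that passed in each pathway list (otherwise the smallest p and the most abundant gene) and the nearest 3 patterns of the 3 members with the smallest p are named. The alternatives were other scaling factors, filters and pseudocounts, DESeq2 1.42.0, limma 3.58.1, a term for Y-linked transcripts and each library left out.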

Additional observations from a re-analysis of the deposited data

How the results depend on the processing

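Igfbp4 kept its direction and passed the threshold in all 15 alternatives. The number of members that passed was 1 in 14 alternatives and 2 with the term for Y-linked transcripts, which added Igfbp7. The number of all genes past the threshold was 247, and 872 with DESeq2, 409 with the term for Y-linked transcripts and 69 (without DE688) to 121 (without DE684) when 1 library was left out. For the pathway-list genes outside the members the number was 5, and 11 with DESeq2, 8 with that term and 1 (without DE688) to 4 when 1 library was left out, with 2 without DE679 and 2 without DE680. Fewer libraries lower these counts by construction; for DESeq2 and the term for Y-linked transcripts the cause was not tested. Of the 90 member values from alternatives that kept all 6 libraries, 89 kept their direction and side of the threshold, and Igfbp7 newly passed in the other.

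With 1 library left out, 6 of 60 member values changed sign and none of those passed: Insr ranged from −0.022 (without DE680) to 0.061, with −0.0062 without DE685. Igf2 ranged from −0.15 (without DE685) to 1.26, Igfbp2 from −0.057 (without DE685) to 0.21, and Igfbp5 from −0.32 (without DE688) to 0.49, with −0.02 without DE680. Levels per kilobase moved by more than 1 SD with the longest transcript for Igfbp2 (58.6), Igf2r (5.07), Igf1r (5.66) and Insr (5.51). No paired analysis was possible because the columns carry no replicate numbers. Depth limits Igf2 and Igfbp6 most, with as few as 64 and 43 counts in a library.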
